A study of Mus musculus with 8 samples.

Results

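The naive pluripotency network is followed here through 10 genes of mouse embryonic stem cells (mESCs): Klf2, Klf4, Klf5, Esrrb, Tfcp2l1, Zfp42, Nr0b1, Dppa3, Tcl1 and Fgfbp1. They were taken by name from the 18094 genes of the expression table, and all 10 were found. A gene was tested where its values averaged 10 normalized counts or more across the 8 libraries, which held for 9 of the 10 members. Dppa3 had a mean of 8.52 and was not tested with the others.

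Naive mESCs resemble the epiblast of the embryo before implantation. LIF, which acts through STAT3, and the 2i inhibitors, which act on GSK3 and on MEK, sustain a circuit of transcription factors in which Esrrb, Tfcp2l1 and the Kruppel-like factors keep each other active. Once these inputs are removed, the circuit is shut down while the cells pass through a formative state toward the germ layers.

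RNA-seq was performed with WT and CTCF-K20R cells of the E14Tg2A line, a male mESC line, before differentiation (day 0) and as embryoid bodies (EBs) on day 4. The day 0 cells were grown on inactivated mouse fibroblasts with serum, LIF and both 2i inhibitors (CHIR99021 and PD0325901), and the EBs formed in hanging drops with serum and no LIF. In CTCF-K20R cells, CRISPR/Cas9 with a donor vector had replaced lysine 20 of CTCF with arginine, and the WT cells of the same line carried no such change. Each genotype and day had 2 libraries. The authors describe the 2 libraries as biological replicates. The sources do not say how many clones the CTCF-K20R libraries came from or whether a pair of libraries came from separate cultures. The p-values thus measure the spread between these libraries, which may be technical.

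All levels are the normalized counts of the authors, that is, estimated reads per gene scaled so that the 8 libraries can be compared. Library totals ran from 19412659 to 21311513 normalized counts, and 3 reads, taken as the limit of detection, corresponded to 2.45 to 3.47. The WT libraries of 1 day differed by less than the sampling noise of reads (mean ratio of observed to sampling variance 0.314 on day 0 and 0.276 on day 4), whereas the CTCF-K20R pairs differed by more (4.00 and 4.35). Each WT pair was therefore averaged and counted as 1 sample. CTCF-K20R means are given with the SD of n = 2, and the fold changes are differences of log2(normalized count + 1) with their SE from limma. A gene was called where it changed past 2-fold with a Benjamini-Hochberg adjusted p under 0.05.

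The day 0 libraries carried the naive genes at high levels, except Dppa3 and Fgfbp1. In counts per kb of exon, Zfp42 in WT mESCs exceeded 99.6% of the genes in the table, Esrrb 98.5%, Klf2 98.2% and Klf5 91.6%, against 33.4% for Fgfbp1 and 26.8% for Dppa3. Fibroblast markers, which the feeder layer could bring in, summed to 2196 to 2210 normalized counts in WT and 1615 to 1635 in CTCF-K20R mESCs. Of the 11 in the table, 5 were at or under the limit of detection in each genotype, Dcn, Postn and Twist2 were at 0 in all 4 day 0 libraries, and most of the sum came from Fbln1.

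Most of the network stayed higher in CTCF-K20R EBs than in WT EBs on day 4, although 8 of its genes were far below their mESC level in both genotypes. Of the 9 members tested, 5 rose in CTCF-K20R EBs compared with WT (Klf2, Esrrb, Zfp42, Nr0b1 and Tcl1), 1 fell (Klf4), and Klf5, Tfcp2l1 and Fgfbp1 were not called. Over all 15767 genes tested, 15.5% were called, 6.89% higher and 8.65% lower. The median difference of the tested members was 1.93 on the log2 scale, with a range of -1.48 to 3.91, against a median of 0.01 over all genes. In mESCs on day 0 no member was called in either direction with limma, where 3.79% of all genes were called (1.19% higher and 2.60% lower), and the median of the members was -0.20. At an unadjusted p under 0.05, whatever the fold, 3 members were higher there (Klf2, Zfp42 and Tcl1) and 3 lower (Klf5, Tfcp2l1 and Nr0b1), and Klf2, Zfp42 and Klf5 also had an adjusted p under 0.05. In bulk RNA, fewer cells that express a gene and less RNA per cell cannot be told apart.

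**Figure D1:**
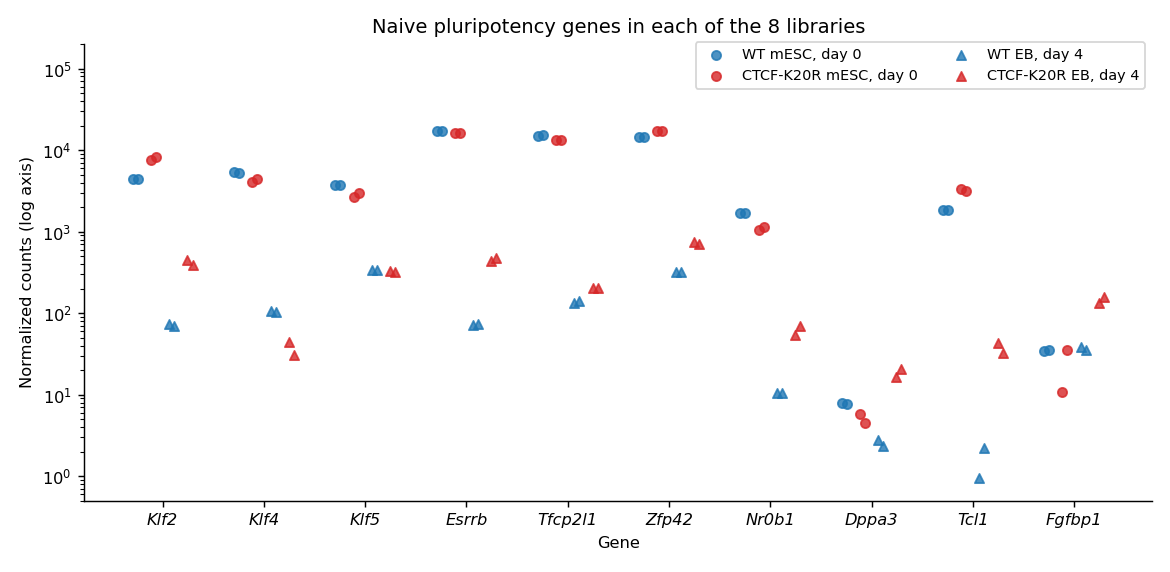
Normalized counts of the 10 genes in each of the 8 libraries on a log axis, with colour for genotype and shape for day. On day 4 the CTCF-K20R points lie above the WT points except for Klf4 and Klf5, where they lie below. How many of all genes separate in this way was not counted. For Klf5 the gap was small (log2 difference -0.07 ± 0.08, adjusted p = 0.569 with limma).

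Klf2, Klf4 and Klf5 are Kruppel-like factors, zinc-finger activators that bind GC-rich sites and can stand in for each other in naive mESCs. They did not move together. Klf2 (ENSMUSG00000055148, chr8:72319033-72321656, plus strand, GRCm38) and Klf4 (ENSMUSG00000003032, chr4:55527143-55532466, minus strand) were called in opposite directions on day 4. Their promoters are shown because both hold the same motif although the genes moved apart. The RefSeq sequences (build GRCm38.p6, 5′ to 3′ on the strand of the gene) run up to the RefSeq start and leave out annotated exon bases, at chr8:72318812-72319032 for Klf2 and chr4:55532476-55532725 for Klf4, with each GC box (GGGGCGGGG on either strand) in capitals.
Klf2: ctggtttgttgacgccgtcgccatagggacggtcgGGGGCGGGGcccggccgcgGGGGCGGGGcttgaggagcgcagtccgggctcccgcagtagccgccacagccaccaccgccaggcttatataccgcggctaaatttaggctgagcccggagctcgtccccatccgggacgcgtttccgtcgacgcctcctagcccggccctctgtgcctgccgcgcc
Klf4: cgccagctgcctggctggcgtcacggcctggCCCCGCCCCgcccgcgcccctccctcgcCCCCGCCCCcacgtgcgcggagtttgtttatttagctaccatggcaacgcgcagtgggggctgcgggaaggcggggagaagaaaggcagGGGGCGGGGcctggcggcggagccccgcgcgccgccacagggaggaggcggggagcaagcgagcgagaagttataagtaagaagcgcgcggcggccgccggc

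The Klf2 window held 2 GC boxes, 215 and 196 bases before the start, and the Klf4 window held 3, at 219, 191 and 102 bases. Of the 32851 RefSeq promoter windows, 11.45% held at least 1.

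In mESCs, Klf2 had 4382 and 4398 normalized counts in the WT libraries and 7550.2 and 8152 in the CTCF-K20R libraries. In EBs it had 73.4 and 69.7 in WT and 450.8 and 387.0 in CTCF-K20R (419 ± 45.1). The CTCF-K20R libraries were above WT on both days, by more on day 4. Klf2 rose by a log2 fold change of 2.53 ± 0.11 (SE) on day 4 (adjusted p = 9.1e-05 with limma), and the difference on day 0 was 0.84 ± 0.11 (adjusted p = 0.00918), short of 2-fold. The change from day 0 to day 4 differed between genotypes by 1.69 ± 0.15 (adjusted p = 0.00164 with limma).

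Most neighbours of Klf2 on chromosome 8 were also higher in CTCF-K20R, on both days. Among the 133 tested genes within 5 Mb of it, 115 were above 0 on day 0 with a median log2 fold change of 0.57, and 114 were above 0 on day 4 with a median of 0.64. Of the 133, 6 were called higher on day 0 and 31 on day 4, and none was called lower. Over all genes, 1.19% were called higher on day 0 and 6.89% on day 4. The day 4 difference of Klf2 was thus larger than the median of its neighbours, while its day 0 difference of 0.84 was near it. The part of this stretch in the difference of Klf2 was not tested. Around Zfp42, on the same chromosome, the median of 41 genes was 0.02 on day 0 and -0.15 on day 4. Around Klf4 it was 0.17 and 0.14 over 41 genes, and around the other members with at least 15 tested neighbours it lay between -0.18 and 0.17.

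**Figure D2:**
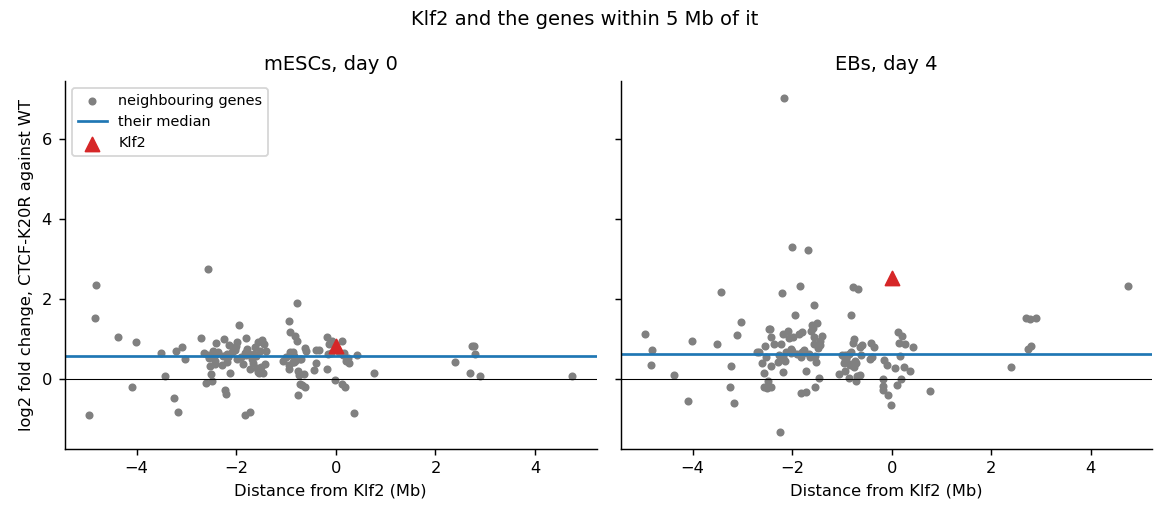
Log2 fold change of CTCF-K20R against WT for each tested gene within 5 Mb of the middle of Klf2, by distance in Mb, on day 0 and on day 4. The line at the median of the 133 neighbours lies at 0.57 on day 0 and 0.64 on day 4, and Klf2 itself is at 0.84 and 2.53.

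Klf4, which is also a reprogramming factor, had 5324 and 5262 normalized counts in WT mESCs and 4066 and 4379.5 in CTCF-K20R mESCs. In EBs it had 105.8 and 104.5 in WT and 44.3 and 30.8 in CTCF-K20R (37.5 ± 9.54). On each day the CTCF-K20R values were lower than the WT values. Klf4 fell by 1.48 ± 0.21 on the log2 scale on day 4 (adjusted p = 0.00405 with limma), and on day 0 the difference was -0.33 (adjusted p = 0.357). The change over time differed by -1.16 ± 0.30 between genotypes (adjusted p = 0.0421 with limma). This call was lost without CTCF-K20R EB replicate 2 (adjusted p = 0.0578), and without CTCF-K20R mESC replicate 1 (0.107) or 2 (0.128).

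Klf5 (ENSMUSG00000005148, chr14:99298691-99315036, plus strand) was the member with the smallest decline among those high in mESCs. It had 3723 and 3708 normalized counts in WT and 2683 and 2952 in CTCF-K20R mESCs, and then 340.9 and 341.8 in WT and 329.0 and 322.9 in CTCF-K20R EBs. The CTCF-K20R values were lower on both days, and on day 4 the gap was small. The log2 difference was -0.07 ± 0.08 on day 4 (adjusted p = 0.569 with limma) and -0.40 ± 0.08 on day 0 (adjusted p = 0.0335). With quantile normalization the day 4 sign turned to 0.06.

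Esrrb and Nr0b1 are nuclear receptors that work without a known hormone. Esrrb is an activator that binds DNA beside Pou5f1 and Sox2, and Nr0b1 (Dax1) is a corepressor that has no zinc-finger DNA-binding domain. Esrrb (ENSMUSG00000021255, chr12:86361117-86521628, plus strand) was the most abundant member in WT mESCs in normalized counts, with 17282 and 17343, and had 16403 and 16202 in CTCF-K20R mESCs. Its EB levels were 71.5 and 73.6 in WT and 441.1 and 479.8 in CTCF-K20R (460 ± 27.4). Near-equal levels on day 0 were followed by a gap on day 4 of 6.35 times. The log2 difference was -0.09 ± 0.07 on day 0 (adjusted p = 0.434 with limma) and 2.65 ± 0.07 on day 4 (adjusted p = 2.53e-05), and the change over time differed by 2.73 ± 0.10 (adjusted p = 0.000128).

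The promoter of Esrrb is shown because the gene had the smallest adjusted p of the members on day 4 and its window is the only 1 of the 9 member windows with a match to the STAT pattern TTCNNNGAA, in capitals, 178 bases before the start. STAT3 is the effector of LIF. The RefSeq window is chr12:86360867-86361116 of GRCm38.p6, plus strand, and 8.30% of all promoter windows held a match. A match is a run of letters and says nothing on binding.
Esrrb: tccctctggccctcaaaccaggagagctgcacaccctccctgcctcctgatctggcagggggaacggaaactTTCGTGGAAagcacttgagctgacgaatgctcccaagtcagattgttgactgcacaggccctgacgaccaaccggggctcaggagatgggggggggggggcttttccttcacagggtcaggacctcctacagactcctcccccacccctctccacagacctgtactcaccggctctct

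Nr0b1 (ENSMUSG00000025056, chrX:86191764-86195947, plus strand) had 1683 and 1685 normalized counts in WT and 1045 and 1150.2 in CTCF-K20R mESCs. In EBs it had 10.6 in each WT library, and 54.5 and 70.3 in CTCF-K20R (62.4 ± 11.2). The order of the genotypes turned between the days, from CTCF-K20R below WT to above it. The log2 difference was -0.62 ± 0.21 on day 0 (adjusted p = 0.106 with limma) and 2.44 ± 0.21 on day 4 (adjusted p = 0.000645). The change over time differed by 3.06 ± 0.29 (adjusted p = 0.00181 with limma).

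Tfcp2l1 and Zfp42 are the remaining DNA-binding factors. Tfcp2l1, a CP2-family activator and target of STAT3 (ENSMUSG00000026380, chr1:118627945-118685168, plus strand), had 15045 and 15133 normalized counts in WT and 13117 and 13135 in CTCF-K20R mESCs. In EBs it had 134.3 and 139.8 in WT and 203.0 and 205.4 in CTCF-K20R. CTCF-K20R was higher on day 4, but the gap of 0.57 ± 0.06 on the log2 scale (adjusted p = 0.00103 with limma) did not reach 2-fold. On day 0 the difference was -0.20 ± 0.06 (adjusted p = 0.0683 with limma), and the change over time differed by 0.77 ± 0.08 (adjusted p = 0.00231), again short of 2-fold. Its span holds an rRNA gene and a processed pseudogene on the opposite strand and an snRNA gene on the same strand. The use of strand in the quantification is not stated in the sources used here.

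Zfp42 (Rex1), a zinc-finger protein long used as a marker of the naive state (ENSMUSG00000051176, chr8:43295063-43306980, minus strand), had 14359.8 and 14332 normalized counts in WT and 17045 and 17100.4 in CTCF-K20R mESCs. In EBs it had 321.7 and 320.4 in WT and 750.9 and 699.8 in CTCF-K20R (725 ± 36.1). It was above WT on both days. Zfp42 rose by 1.17 ± 0.06 on the log2 scale on day 4 (adjusted p = 0.000133 with limma), and the day 0 difference was 0.25 ± 0.06 (adjusted p = 0.0420). The change over time differed by 0.92 ± 0.08 (adjusted p = 0.00143 with limma), short of 2-fold.

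The Zfp42 promoter is shown because it is the only member window with the octamer ATGCAAAT, the site of Pou5f1 and other POU factors, and it also holds a Kruppel-like factor pattern, GGGNGTGG. The octamer, read on the opposite strand, lies 186 bases and the other pattern 75 bases before the start, both in capitals. Over all windows, 1.74% held the octamer and 17.62% the Kruppel-like factor pattern, which Tfcp2l1 and Fgfbp1 held as well. The window is chr8:43307010-43307259 of GRCm38.p6, minus strand.
Zfp42: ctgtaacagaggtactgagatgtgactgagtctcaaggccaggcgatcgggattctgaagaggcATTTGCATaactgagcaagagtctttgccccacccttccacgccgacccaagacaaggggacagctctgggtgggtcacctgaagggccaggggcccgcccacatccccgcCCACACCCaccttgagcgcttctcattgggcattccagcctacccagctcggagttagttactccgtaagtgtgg

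The other 3 members are not transcription factors that bind DNA at known motifs. Tcl1 is an adaptor that promotes Akt signalling, Dppa3 (Stella) is a maternal and germ-line factor that protects DNA methylation marks in the early embryo, and Fgfbp1 is a secreted carrier that releases fibroblast growth factors from the matrix. Tcl1 (ENSMUSG00000041359, chr12:105216750-105222793, minus strand) had 1842 and 1853 normalized counts in WT and 3304 and 3188 in CTCF-K20R mESCs. In EBs it was at 0.959 and 2.22 in WT, under the limit of detection, and at 43.6 and 32.7 in CTCF-K20R (38.2 ± 7.70). The CTCF-K20R libraries were higher on both days.

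The log2 difference of Tcl1 was 0.81 ± 0.21 on day 0 (adjusted p = 0.0584 with limma) and 3.91 ± 0.21 on day 4 (adjusted p = 0.000163). The WT EB level rests on about 4 reads in all against about 68, a ratio of 24.0 with an exact 95% interval of 8.03 to 81.3 that covers counting error only, so the fitted fold change depends on the pseudocount (2.05 with 10 added and 4.49 with 0.1 added). The change over time differed by 3.09 ± 0.30 (adjusted p = 0.00196 with limma), and by 1.24 with 10 added and 3.68 with 0.1 added. Its neighbouring paralog Tcl1b2 was at 8.81 to 14.9 normalized counts in the 4 day 0 libraries and at 0 in the 4 day 4 libraries. The Tcl1 promoter is shown because the gene had the largest fitted difference between genotypes among the members at a pseudocount of 1, although with 10 added Esrrb (2.51) and Klf2 (2.39) exceeded it. It spans chr12:105222794-105222987 of GRCm38.p6, minus strand, with its GC box, 66 bases before the RefSeq start of the window, in capitals.
Tcl1: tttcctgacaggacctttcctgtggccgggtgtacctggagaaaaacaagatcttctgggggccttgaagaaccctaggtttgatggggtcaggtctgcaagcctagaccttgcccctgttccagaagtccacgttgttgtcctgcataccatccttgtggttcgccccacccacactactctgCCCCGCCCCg

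None of the 9 member windows held the estrogen-related receptor pattern TCAAGGTCA, the TCF/LEF pattern CTTTGAT or the CTCF core pattern (CC, 3 bases of any kind, AGG, 1 base of any kind, GGC), which 0.42%, 3.73% and 3.43% of all windows held. All patterns were searched on both strands, and the GC box and the Kruppel-like factor pattern can share bases. The windows covered 8 of the 10 members. Klf5 and Dppa3 had no entry.

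Dppa3 (ENSMUSG00000046323, chr6:122626410-122630272, plus strand) was near the limit of detection, and its mean in WT EBs (2.60) was under it (2.67 there). It had 7.83 and 7.77 normalized counts in WT and 5.77 and 4.53 in CTCF-K20R mESCs, and 2.82 and 2.38 in WT and 16.6 and 20.4 in CTCF-K20R EBs (18.5 ± 2.71). The CTCF-K20R EBs were thus the group with the highest level. On day 4 about 6 reads in WT stood against about 33 in CTCF-K20R, a ratio of 7.12 with an exact 95% interval of 2.88 to 20.3 for counting error. When the filter on low values was left out, the log2 difference was 2.43 ± 0.36 on day 4 (adjusted p = 0.0167 with limma) and -0.52 on day 0 (adjusted p = 0.421).

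Dppa3 is also active in germ cells and at the 2-cell stage, so markers of both were examined. Of the 8 germ cell markers tested, 2 rose in CTCF-K20R EBs (Dazl, 2.73, and Stk31, 1.51) and 3 fell (Prdm1, -3.72, Kit, -2.34, and Tfap2c, -1.03), and none was called on day 0 with limma, where 2 were higher and 1 lower at an unadjusted p under 0.05. The summed germ cell markers were at 3444 to 3459 normalized counts in WT EBs and 1403 to 1437 in CTCF-K20R EBs. Of the 5 markers of 2-cell-like cells tested, 4 were called higher on day 4 and 3 on day 0. Over all genes, 6.89% were called higher and 8.65% lower on day 4, and 1.19% and 2.60% on day 0. The 2-cell markers summed to 16.4 to 19.3 in WT EBs and 353.7 to 436.8 in CTCF-K20R EBs. Zscan4c was at 0 in both WT EB libraries and at 101.7 and 110.1 in CTCF-K20R. Their part in the level of Dppa3 was not tested.

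Fgfbp1 (ENSMUSG00000048373, chr5:43978858-43981779, minus strand) was the only tested member that did not decline. It had 34.0 and 35.0 normalized counts in WT and 10.7 and 35.3 in CTCF-K20R mESCs, and 38.4 and 35.7 in WT and 133.6 and 156.0 in CTCF-K20R EBs (145 ± 15.8). The groups overlapped on day 0, and on day 4 CTCF-K20R was at 3.91 times WT. The log2 difference of 1.93 ± 0.67 on day 4 missed the threshold (adjusted p = 0.0700 with limma). It missed it in most of the 21 settings of the fit at this threshold, the main one counted, such as a pseudocount of 0.1 (0.0898). It passed under 8 alternatives: with the replicate numbers as a block (adjusted p = 0.0272), with all 8 libraries as separate samples (0.00913, and 0.00855 with the block), with a pseudocount of 10 (0.0287), with quantile normalization (0.0416), with only the compared libraries in the fit (0.00900), and without CTCF-K20R mESC replicate 1 (0.0134) or 2 (0.0157), the pair that disagreed most on this gene.

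Between day 0 and day 4, 8 of the 9 tested members fell in CTCF-K20R cells and Fgfbp1 rose, against 26.1% of all genes called, 11.6% lower and 14.5% higher. The falls ranged from -3.11 for Klf5 to -6.80 for Klf4 on the log2 scale, each with an adjusted p of 2.33e-05 or lower in limma. Fgfbp1 rose by 2.82 ± 0.55 (adjusted p = 0.00693 with limma), a call lost without CTCF-K20R EB replicate 1 (0.0940) or 2 (0.108). In WT cells, where 1 sample stood against 1 and no test was made, the same 8 members were lower past 2-fold, from -3.44 for Klf5 to -9.48 for Tcl1, and Fgfbp1 differed by 0.10. Over all genes 35.2% differed past 2-fold in WT, 16.3% lower and 18.9% higher.

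The share of the mESC level that was kept in EBs varied over the network and between genotypes. WT EBs kept 0.0860% of Tcl1, 0.419% of Esrrb, 0.627% of Nr0b1, 0.908% of Tfcp2l1, 1.63% of Klf2, 1.99% of Klf4, 2.24% of Zfp42 and 9.19% of Klf5. CTCF-K20R EBs kept 0.889% of Klf4, 1.18% of Tcl1, 1.56% of Tfcp2l1, 2.82% of Esrrb, 4.25% of Zfp42, 5.34% of Klf2, 5.68% of Nr0b1 and 11.6% of Klf5. The share was larger in CTCF-K20R for 7 of these 8 genes and smaller for Klf4. The day 4 level of Fgfbp1 was 107.5% of its day 0 level in WT and 630.1% in CTCF-K20R, and that of Dppa3, at low counts, 33.4% and 359.7%. Tested as the difference of the changes over time, 4 of the 9 members were called higher (Klf2, Esrrb, Nr0b1 and Tcl1) and 1 lower (Klf4), where 12.9% of all genes were called, 6.84% higher and 6.04% lower. The 10 genes together summed to 63683 and 63756 normalized counts in WT mESCs, 65229 and 66299 in CTCF-K20R mESCs, 1100.4 and 1101 in WT EBs, and 2467 and 2405 in CTCF-K20R EBs.

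**Figure D3:**
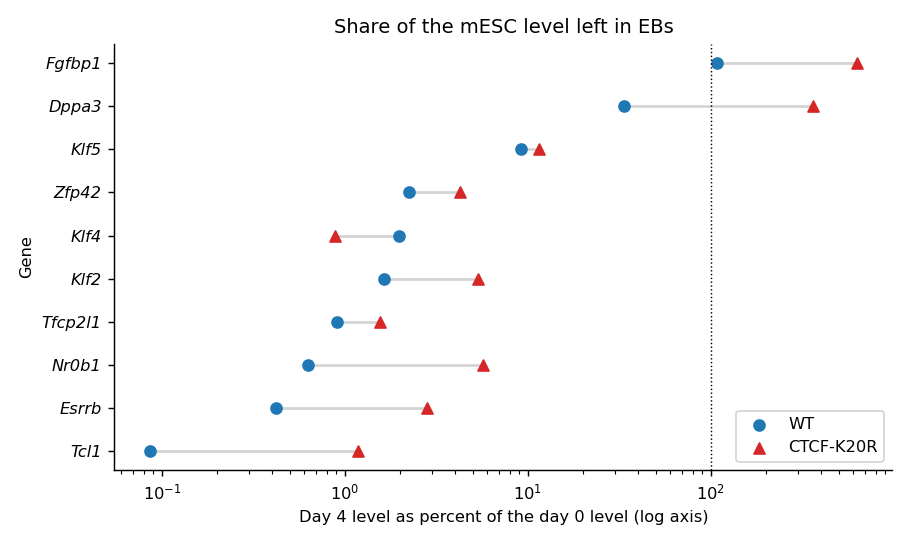
Percent of the day 0 mean level kept on day 4 in each genotype, on a log axis, for the 10 genes, with a dotted line where both levels are equal. The CTCF-K20R point lies to the right of the WT point for all but Klf4, where CTCF-K20R kept 0.889% and WT 1.99%.

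**Figure D4:**
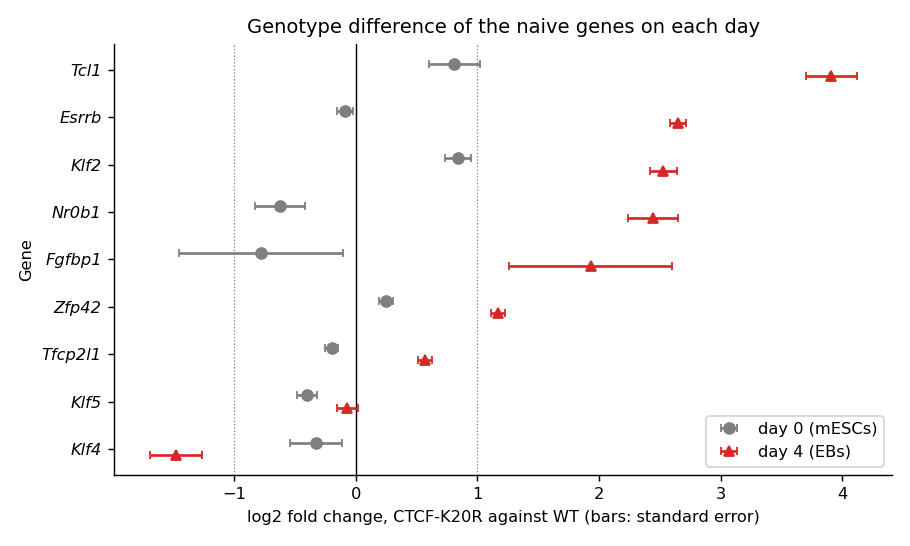
Log2 fold change of CTCF-K20R against WT with its SE for each tested member on day 0 and on day 4, with dotted lines at 2-fold. On day 4, Tcl1 (3.91), Esrrb (2.65), Klf2 (2.53), Nr0b1 (2.44) and Zfp42 (1.17) were called higher and Klf4 (-1.48) lower, and on day 0 no member was called.

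In counts per kb of exon, the order of the levels among the members differed between mESCs and EBs. WT mESCs ranked Zfp42 (7631), Esrrb (2862), Klf2 (2373), Klf4 (1735), Tfcp2l1 (1598), Tcl1 (1004.0), Nr0b1 (930.2), Klf5 (715), Fgfbp1 (15.3) and Dppa3 (8.77). Zfp42 led in all 4 groups. In CTCF-K20R EBs Zfp42 (386 per kb) was followed by Klf2 (226), Esrrb (76.1), Fgfbp1 (64.1), Klf5 (62.7) and Nr0b1 (34.5), and then by Tfcp2l1 (21.6), Dppa3 (20.8), Tcl1 (20.8) and Klf4 (12.3). The ranges of the 2 libraries overlapped between Fgfbp1 and Klf5, and among Tfcp2l1, Dppa3 and Tcl1. Klf4, which ranked 4 of 10 in WT EBs, ranked last in CTCF-K20R EBs.

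The other genes of the naive state that were listed for comparison also mostly rose on day 4. Of the 16 tested, 11 rose in CTCF-K20R EBs and 2 fell, with a median of 1.56. Among all genes, 6.89% were called higher and 8.65% lower. Tdh, threonine dehydrogenase of mESC metabolism, averaged 244 normalized counts in WT EBs, against 1694 and 1601 in CTCF-K20R EBs (log2 fold change 2.75, adjusted p = 1.67e-05 with limma), Morc1 rose by 2.50, Dppa5a by 2.37 and the homeobox factor Nanog by 1.66 (1700.3 in WT EBs, 5510.4 and 5208 in CTCF-K20R). The 2 that fell, named after their values were seen, were Tbx3 (-1.88, adjusted p = 0.0140 with limma), a T-box factor downstream of LIF, and the imprint regulator Zfp57 (-1.15, adjusted p = 0.00106). On day 0, where 1.19% of all genes were called higher and 2.60% lower, only Tdh was called. It was lower by 1.26 on the log2 scale in CTCF-K20R mESCs (14597 in WT, 6002 and 6181 in CTCF-K20R). It was thus lower before differentiation and higher after it.

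Factors shared by the naive and later pluripotent states were mixed. Of 8 core factors, 3 rose on day 4 (Utf1, 3.93, Foxd3, 2.42, and Sox2, 2.39), 1 fell (Tdgf1, -1.02), and the median was 0.26. Among all genes, 6.89% were called higher and 8.65% lower on that day. Pou5f1 (Oct4) averaged 12646 normalized counts in WT EBs, against 21940.1 and 21590.1 in CTCF-K20R EBs, a log2 difference of 0.78 (adjusted p = 0.00011 with limma), short of 2-fold, and Sall4 had -0.81. None of the 8 was called on day 0 with limma, where 5 were lower at an unadjusted p under 0.05. Of 14 formative and primed epiblast genes, 4 rose on day 4 (Pou3f1, 3.54, Sox3, 2.75, Tcf15, 2.22, and Dnmt3b, 1.36) and 3 fell (Cdh2, -4.93, Lef1, -1.52, and Sox4, -1.11), of which Tcf15, Dnmt3b and Sox4 were named after their values were seen. Fgf5, the usual marker of the formative state, stood at 3759 in WT EBs and at 3205 and 3309 in CTCF-K20R EBs (adjusted p = 0.750). Within CTCF-K20R, 13 of the 14 rose from day 0 to day 4, and in WT 12 were higher past 2-fold and 1 lower, with no test. The shares of all genes were 14.5% higher in CTCF-K20R, and 18.9% higher and 16.3% lower in WT. On day 0, 4 of the 14 were called lower in CTCF-K20R mESCs (Sox3, Lef1, and, named after their values were seen, Sall2 and Lin28b) and none higher. Among all genes, 2.60% were called lower and 1.19% higher there. At an unadjusted p under 0.05 in limma, 10 of the 14 were lower and 1 higher.

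On day 4, the genes linked to the inputs of the network that were called were lower in CTCF-K20R EBs, while others did not follow. Of 16 genes linked to LIF, STAT3 and the 2i targets, none rose and 5 fell in CTCF-K20R EBs with limma, where 6.89% of all genes rose and 8.65% fell. At an unadjusted p under 0.05, 3 of the 16 were higher and 8 lower. The 5 that fell were Sp5 (-5.05), Axin2 (-1.28), Dusp6 (-1.51), Egr1 (-1.32) and the LIF receptor gene Lifr (-1.35). Sp5 and Axin2 are targets of WNT signalling, and Dusp6 and Egr1 of ERK signalling. The other ERK-linked genes of the list were not called. Etv5 was higher by 0.96 (adjusted p = 0.000138 with limma), and Spry2 (-0.20), Spry4 (-0.14) and Etv4 (-0.73) were lower. Stat3 (-0.07) and Socs3 (0.18) were not called either. Axin2, Etv5, Spry2, Stat3 and Socs3 were named after their values were seen. On day 0, 2 of the 16 rose and none fell, where 1.19% of all genes were called higher. Both were ERK-linked, Etv4 by 3.80 (82.4 in WT, 1234 and 1096 in CTCF-K20R mESCs) and Spry4 by 2.52. At an unadjusted p under 0.05 in limma, 4 of the 16 were higher there and 6 lower. Of the other ERK-linked genes of the list, Egr1 differed by 0.60 (adjusted p = 0.0058 with limma) and Dusp6 by -0.27 (0.169). Etv5 differed by 0.02 (adjusted p = 0.786 with limma) and Spry2 by 0.04 (0.757). Lifr averaged 1121 normalized counts in WT EBs, against 426.1 and 451.7 in the CTCF-K20R libraries.

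Most of the primitive streak, mesoderm, primitive endoderm and fibroblast markers that were called in the EBs were lower in CTCF-K20R. No list of ectoderm markers was examined. Of 12 primitive streak and mesoderm genes, 11 fell in CTCF-K20R EBs, with a median of -5.67 (Lhx1 averaged 15604 normalized counts in WT, against 6.65 and 6.78, and Msgn1 883, against 0 in both CTCF-K20R libraries), and their sum was 62577 to 62905 normalized counts in WT and 3504 to 3579.9 in CTCF-K20R. Of 7 primitive endoderm markers tested, 4 fell (Sox17, Gata6, Foxa2 and Gata4) and 1 rose (Amn, 1.64, at 7.72 in WT and at 33.5 and 20.5 in CTCF-K20R). At an unadjusted p under 0.05 in limma, 3 of the 7 were higher and 4 lower, and the largest rise, 1.71, was not called. The sums of these markers were 6970.4 to 6994 in WT and 443.1 to 525.3 in CTCF-K20R. Of 8 fibroblast markers tested, 2 rose (Col3a1 and Thy1) and 3 fell (Postn, Prrx1 and Col5a1), and the sums were 3044 to 3063 and 1653 to 1723. For comparison with these lists, 6.89% of all genes were called higher and 8.65% lower. Gata4, Amn, Col5a1, Fbln1, Dcn, Twist2 and Tfap2c were named after their values were seen. The part of the makeup of the EBs in the levels of the naive genes was not tested.

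**Figure D5:**
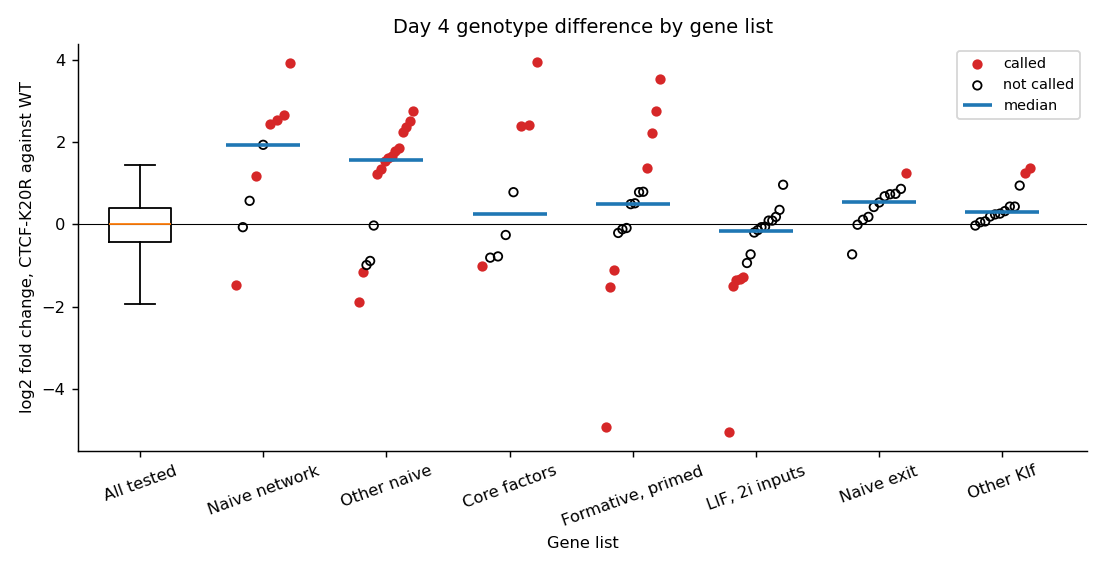
Log2 fold change of CTCF-K20R against WT on day 4 for each tested gene (points, filled where called) of the members and of 6 lists set beside them, with the median of each list as a bar and all tested genes as a box of their quartiles with whiskers from percentile 5 to 95. The medians are 1.93 for the members, 1.56 for the other naive genes, 0.26 for the core factors, 0.50 for the formative genes and -0.17 for the genes of the LIF and 2i inputs.

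The genes whose profile over the 6 samples lay closest to the median profile of the members, by Euclidean distance of centred log2 values among genes that averaged 100 normalized counts or more, were Abcb1a (0.600), Slc6a7 (0.626), Sytl3 (0.677), Kank4 (0.684) and Nlrp4a (0.726). Abcb1a, an efflux transporter, had means of 1028 and 1043 normalized counts in WT and CTCF-K20R mESCs. It had 9.80 in WT EBs, and 36.0 and 25.5 in CTCF-K20R EBs (log2 fold change 1.54). The day 4 difference was 1.63 for Slc6a7, 1.41 for Sytl3, 0.89 for Kank4 and 1.05 for Nlrp4a. These genes were chosen by the same values, so their differences follow from the choice and no call is given. The WT EB means of Slc6a7 (2.18) and Sytl3 (1.49) were under the limit of detection (2.67 there).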

How the data were processed

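Estimated counts per gene had been made by the authors with Trim Galore, Salmon on mm10, tximport and DESeq2 (the annotation release is not given in the sources used here), and the deposited signal is their normalized counts, which are not whole reads, so no count model was run. log2(value + 1) of the 15767 genes that averaged 10 or more was fitted with limma 3.58.1 in R 4.3.3 (group means, eBayes with trend, residual df 2 and prior df 3.51), with Benjamini-Hochberg adjustment. WT pairs were averaged, which left 6 samples. Same-numbered libraries did not deviate together (correlations of -0.01 to 0.024). The fit was tested on simulated data. Positions came from GENCODE (GRCm38) and promoters from RefSeq. Python 3.11.15 drew the plots.

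All members are named. Of each other list, the 3 genes with the largest difference on either day, Pou5f1, Sox2, Nanog, Sall4 and Tdgf1 could be named, and the 5 genes closest in profile. The members and lists were chosen with earlier results of these data known. Alternatives were other pseudocounts, filters, scalings, thresholds, sample sets and blocks.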

Additional observations from a re-analysis of the deposited data

Results flagged for a closer look

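For 5 members the difference between CTCF-K20R and WT was not the same on day 4 as on day 0, tested as an interaction with limma and Benjamini-Hochberg adjustment. The day 4 log2 fold change exceeded that of day 0 by 1.69 for Klf2 (2.53 against 0.84, adjusted p = 0.00164), by 2.73 for Esrrb (2.65 against -0.09, adjusted p = 0.000128), by 3.06 for Nr0b1 (2.44 against -0.62, adjusted p = 0.00181) and by 3.09 for Tcl1 (3.91 against 0.81, adjusted p = 0.00196). For Klf4 the difference was -1.16 (-1.48 against -0.33, adjusted p = 0.0421), and it lost its call under 8 of 19 other settings of the fit at the same threshold. The Tcl1 value rests on a WT level under the limit of detection on day 4 and was 1.24 with a pseudocount of 10 and 3.68 with 0.1, and Klf2 lies among neighbours with a median difference of 0.57 on day 0 and 0.64 on day 4.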

How the results depend on the processing

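The day 4 calls of Klf2, Klf4, Esrrb, Zfp42, Nr0b1 and Tcl1 held under all alternatives run. Signs reversed for Klf5 on day 4 (0.06) and for Fgfbp1 in the WT change over time (-0.18) with quantile normalization, and for Fgfbp1 on day 0 when libraries were left out in turn (-1.60 to 0.03, the latter without CTCF-K20R mESC replicate 1). On day 0, 2 members were called higher (Klf2 and Zfp42) and 1 lower (Klf5) without a minimum fold. The call of Klf4 in the difference of the changes over time was lost (0 members lower) with a pseudocount of 0.1 or 10, no filter, quantile normalization, no mean-variance trend and an adjusted p under 0.01, and leaving out a library gave 0 to 1. Within CTCF-K20R over time, 2 members rose without the filter (Dppa3 and Fgfbp1), and leaving out a library gave 0 to 1.

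Counts over all genes moved more. On day 4 (2451 called), no minimum fold gave 6329 and leaving out a library gave 1590 to 2474. On day 0 (598), all 8 libraries as separate samples gave 1348, and 1344 with the replicate block, no trend 56, only the compared libraries 146, an adjusted p under 0.01 234, no minimum fold 2429, and leaving out a library 0 to 615, with 0 without either CTCF-K20R EB library. Within CTCF-K20R over time (4117), no minimum fold gave 9221 and leaving out a library 3460 to 4116. For the difference of the changes (2031), all 8 libraries gave 3340, and 3325 with the block, an adjusted p under 0.01 1113, no minimum fold 4200, and leaving out a library 885 to 2059. The cause was not tested.

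The replicate numbers did not pair the libraries. With them as a block, 1072 genes were called higher and 1373 lower on day 4 and Fgfbp1 passed there (adjusted p = 0.0272) and in the difference of the changes (0.0398), with no other member's call changed. Quantile normalization turned the day 4 split from 1087 higher and 1364 lower to 1448 and 1249, and scaling to the total count gave 924 and 1594. Total count scaling moved the median of all genes to 0.119 in the WT change over time. Depth limits Dppa3 in all groups and Tcl1 in WT EBs, and with 1 WT sample per day the spread rests on the CTCF-K20R pairs. Where a CTCF-K20R library was left out, the lone one was assumed to vary like the remaining pair.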

Other observations

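Of 11 genes that act for or against exit from the naive state, 1 rose in CTCF-K20R EBs and none fell with limma. Over all genes 6.89% were called higher and 8.65% lower. At an unadjusted p under 0.05, 9 of the 11 were higher and 1 lower, with a median log2 fold change of 0.53 over the list. The gene that rose was Tfe3, a factor that activates Esrrb when it is in the nucleus, which averaged 1276 normalized counts in WT EBs, against 3064 and 2973 in CTCF-K20R EBs (1.24, adjusted p = 0.000192 with limma and Benjamini-Hochberg adjustment). Flcn, which keeps Tfe3 out of the nucleus, had 1063 in WT EBs and 1926 and 1926 in CTCF-K20R EBs (0.86, adjusted p = 0.00034), short of 2-fold. In mESCs on day 0 both differed the other way without a call, Tfe3 by -0.66 (adjusted p = 0.0054) and Flcn by -0.30 (adjusted p = 0.0282).

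Of the 12 other Kruppel-like factor genes tested, 2 rose in CTCF-K20R EBs and none fell, with a median of 0.29. Called in either direction, the share was near the 15.5% of all genes, made up of 6.89% higher and 8.65% lower. At an unadjusted p under 0.05 in limma, 6 were higher and 0 lower. Klf8 averaged 289 normalized counts in WT EBs, against 677.8 and 828.4 in CTCF-K20R EBs (1.37, adjusted p = 0.000955 with limma), and Klf9 had 704 in WT EBs and 1666 and 1663 in CTCF-K20R EBs (1.24, adjusted p = 0.000167). On day 0 none of the 12 was called, and 3 were higher and 2 lower at an unadjusted p under 0.05. Klf6 had the largest difference there, with 1304 in WT mESCs and 2613 and 2597 in CTCF-K20R mESCs (1.00, adjusted p = 0.00113).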
